A study of Homo sapiens with 8 samples.

Results

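The genes described here are 213 protein-coding genes of the long arm of human chromosome 8, the arm that carries TRIB1, out of 57905 genes in the deposited table. They were taken as the genes listed as protein-coding on chromosome 8 with a listed start of at least 46000000, whose mean over the 2 control libraries of DU145 or of PC3 was at least 5 TPM (a level scaled for gene length and to the same total in every library). Of 349 such genes 222 reached that level, and 9 of those were left out by name: TRIB1 itself, CEBPD, SNAI2, RPS20, HEY1, ESRP1, NDUFB9, SQLE and NDRG1. The members were thus chosen by their levels in the control libraries, so the difference between the 2 control groups is given as a description, with no test. Of the 213 members, 16 were under 5 TPM in the DU145 controls and 21 were under it in the PC3 controls. Just inside the limit were BAI1, JPH1 and CA2, with a higher control mean of 5.04, 5.13 and 5.16 TPM, and just outside were PAG1, RP11-383H13.1 and CRISPLD1, with 4.89, 4.87 and 4.70 TPM. The listed gene type appears to be that of a single transcript, and 54 further genes of the arm that reach the level are coding in GENCODE 29 but listed under another type. Among these are SDCBP and TMEM68. Positions are given as the distance of a gene's listed start from that of TRIB1, in Mb, because the build of the listed intervals is not stated: none of the 205 members found in GENCODE 29 on GRCh38 had the same start there.

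The libraries are RNA sequencing of DU145 and PC3, 2 established human prostate cancer cell lines that came from metastases and grow without androgen. Each line received a lentivirus that carried TRIB1 or, as the control, a lentivirus without an insert, and the question was which transcripts change when TRIB1 is overexpressed. This gives 4 groups of 2 libraries, the control and the TRIB1 group of each line. The promoter of the virus, its dose and whether the transduced cells were a pool or a clone are not given in the labels, nor is it stated that the replicates were separate cultures, so the spread behind the p-values may be a technical one.

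TRIB1 encodes a pseudokinase that lacks normal catalytic activity and acts as a scaffold: it brings the ubiquitin ligase COP1 to substrates such as the transcription factor C/EBP alpha. On the chromosome it lies in a gene-poor stretch before MYC, and gain of 8q, with MYC as the best-known gene, is among the most frequent chromosomal changes of advanced prostate cancer. In bulk RNA, fewer cells that carry a transcript and less of it per cell cannot be told apart.

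TRIB1 was measured first, as the check of the labels. It was 10.1 and 7.94 TPM in the DU145 controls, 69.4 and 62.3 in DU145 with TRIB1, 45.1 and 50.8 in the PC3 controls and 241 and 245 in PC3 with TRIB1, so that both TRIB1 libraries lay above both controls in each line, with log2 changes of 2.75 (SE 0.12, adjusted p = 0.0018) in DU145 and 2.32 (SE 0.12, adjusted p = 0.00095) in PC3. These values come from limma on log2(TPM + 1), fitted over all 25982 genes tested, with adjustment over all of them, as do all p-values below. "Rose" and "fell" stand for an adjusted p below 0.05. Sequencing depth is unknown, as TPM values keep no read totals. The members took 1.30% to 1.37% of the TPM in the DU145 libraries and 1.55% to 1.68% in the PC3 libraries. The 4 epithelial markers KRT8, KRT18, EPCAM and CDH1 summed to 1056 to 1199 TPM in DU145, whereas in PC3 they summed to 517 and 541 in the controls and 1546 and 1585 with TRIB1, and all 4 rose there. Of the fibroblast markers, COL1A1 fell and LUM rose in PC3 and DCN stayed at 1.15 TPM or under, the list summing to 58.1 and 70.6 TPM in the controls and 40.04 and 45.1 with TRIB1. PTPRC, of blood cells, was at or under 0.467 TPM in every library. The part of these cell states in the results below was not tested.

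In PC3, 134 of the 213 members had a positive change with TRIB1, beside 11718 of the 25982 genes tested. Of all members 45 rose and 11 fell, which is 21.1% and 5.16% of them, beside 7.67% and 9.33% of all genes tested and 11.7% and 16.7% of the 9293 coding genes of the other chromosomes that pass the same level. Changes past a doubling or halving (an absolute log2 change over 1) were called for 10 members upward and 2 downward, beside 2.52% and 2.67% of all genes and 2.13% and 3.52% of those on other chromosomes. Single chromosomes reach such shares: 23.4% of 501 genes of chromosome 12 rose and 7.39% fell, and 20.9% and 10.3% of 545 genes of chromosome 11 did. The members' median log2 change was 0.15, that of chromosome 12 was also 0.15, and that of the other chromosomes' genes under the same level rule was -0.06. Both PC3 TRIB1 libraries lay above both controls for 102 members and below them for 43, where 24.5% and 29.8% of all genes tested and 30.7% and 40% of those on other chromosomes under the level rule did so. The number that rose was 18 when either PC3 TRIB1 library was left out and 29 without PC3 control replicate 2. The number that fell was 4 and 6 without PC3 TRIB1 replicate 1 and 2, and 6 without either DU145 control library.

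**Figure D1:**
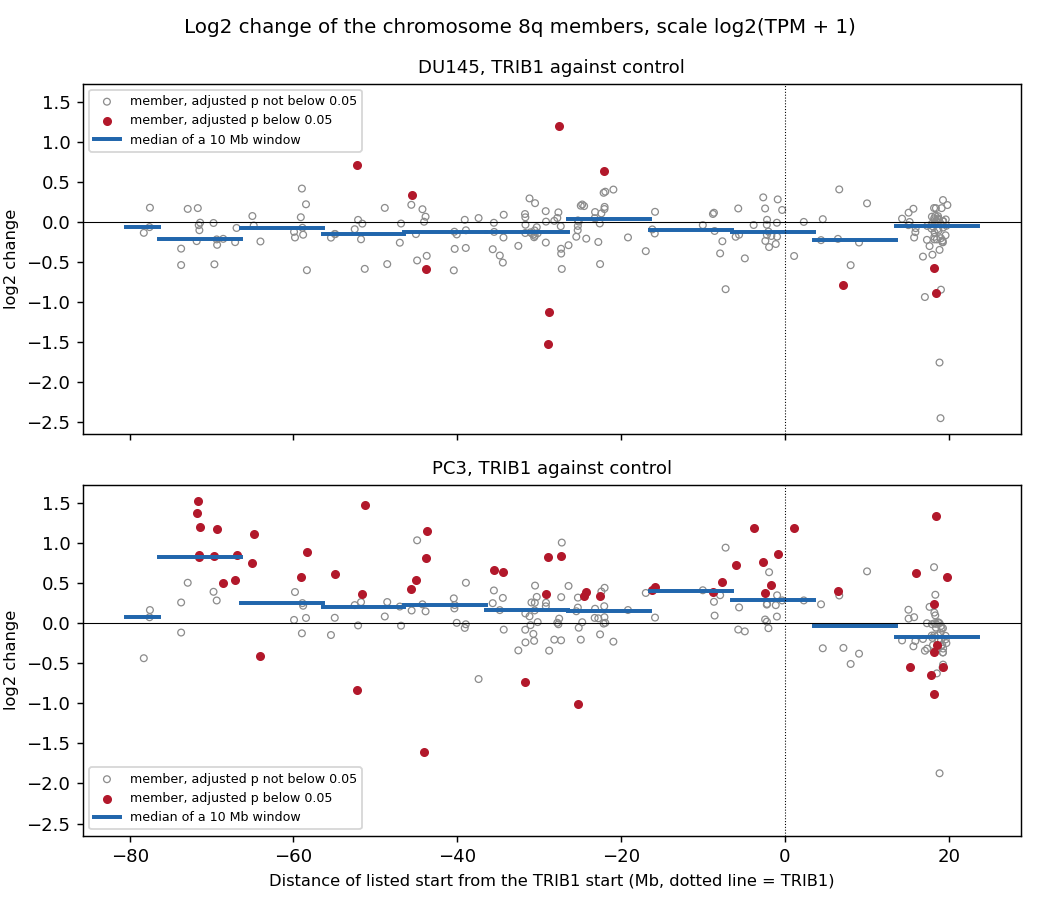
Log2 change of each of the 213 members (vertical axis, scale log2(TPM + 1)) against the distance of its listed start from the TRIB1 start in Mb (horizontal axis), for DU145 above and PC3 below; filled points have an adjusted p below 0.05, open points do not, and bars are the medians of the 10 Mb windows. In PC3 the window from 50 Mb stands highest, with a median of 0.83, and the last window lies below 0, with -0.17, while in DU145 the window medians stay between -0.22 and 0.03.

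By 10 Mb windows of the listed start, the PC3 change was far from even. The median was 0.83 in the window from 50 to 60 Mb, where 10 of 15 members rose and 0 fell (limma, also 0 at an unadjusted p below 0.05). In the 6 windows from 60 to 120 Mb it lay between 0.16 and 0.40, in the window from 120 Mb, which holds TRIB1, it was 0.28, and in the last 2 windows it was -0.04 and -0.17. Among the 265 windows of the genome that hold at least 10 genes under the same level rule, the window from 50 Mb had the highest PC3 median, and 4 windows in all had a median over 0.5. With windows shifted by 5 Mb the highest median was 0.75, in the window from 55 Mb.

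The high window comes from a run of 14 neighbouring members, ATP6V1H to CHD7, over 6.96 Mb of the proximal arm (listed starts 54628117 to 61591337, that is 71.8 to 64.9 Mb before TRIB1). Its first and last members rose, and not every member between them passed. The run was picked out after its values had been seen, and its counts are a description. All 14 had a positive PC3 log2 change, from 0.28 to 1.52 with a median of 0.84, which is a median of 1.88 times the control level on the TPM scale. Of the 14, 12 rose, 0 fell (also at an unadjusted p below 0.05), and 13 did not overlap between the PC3 groups. Outside the run the 199 other members had a PC3 median of 0.08, with 33 that rose and 11 that fell. When each library was left out in turn, between 9 and 12 members of the run still rose, and its median stayed between 0.80 and 0.93. With the 4 PC3 libraries fitted by themselves 4 of the 14 rose.

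The run opens with ATP6V1H, a regulatory subunit of the vacuolar proton pump that acidifies lysosomes. It was 52.4 and 45.3 TPM in the DU145 controls, 41.4 and 40.7 in DU145 with TRIB1, 9.25 and 8.04 in the PC3 controls and 24.4 and 23.6 in PC3 with TRIB1. The PC3 controls were the lowest of all libraries and the TRIB1 libraries stood between them and DU145, with no overlap, a log2 change of 1.38 (SE 0.10, adjusted p = 0.00161). Next to it, RGS20, which switches off G-protein signalling, was 39 and 42.2 TPM in the DU145 controls, 48.1 and 43.5 in DU145 with TRIB1, 4.30 and 4.72 in the PC3 controls and 14.2 and 15.5 in PC3 with TRIB1. Its PC3 change of 1.52 (SE 0.10, adjusted p = 0.00111) was the largest of all members upward, and the groups did not overlap.

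TCEA1, the elongation factor that rescues stalled RNA polymerase II, was 97.5 and 101 TPM in the DU145 controls, 97 and 95.8 in DU145 with TRIB1, 22.2 and 20.3 in the PC3 controls and 38.8 and 39.3 in PC3 with TRIB1. Both pairs of PC3 replicates were tight and apart, with a change of 0.85 (SE 0.06, adjusted p = 0.00172). LYPLA1, a thioesterase that removes palmitate from proteins, went from 25.8 and 25.9 to 47.9 and 45.6 TPM in PC3, a change of 0.83 (SE 0.08, adjusted p = 0.0032). MRPL15, a protein of the large mitochondrial ribosomal subunit, went from 17.2 and 22.4 to 48.9 and 44.3 TPM, a change of 1.2 (SE 0.15, adjusted p = 0.00573). In DU145 with TRIB1 the last 3 genes stayed within 0.11 log2 units of their controls.

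LYN, a tyrosine kinase of the Src family, was 47.1 and 46.3 TPM in the DU145 controls, 33 and 31.1 in DU145 with TRIB1, 7.62 and 6.43 in the PC3 controls and 13.2 and 13.4 in PC3 with TRIB1. It rose in PC3 by 0.83 (SE 0.09, adjusted p = 0.00489), whereas in DU145 both TRIB1 libraries were below both controls, a change of -0.53 (SE 0.09, adjusted p = 0.0516) that just missed the threshold. CHCHD7, a small protein of the mitochondrial intermembrane space, was 143 and 137 TPM in the DU145 controls, 116 and 112 in DU145 with TRIB1, 15.1 and 19.4 in the PC3 controls and 40.3 and 39.8 in PC3 with TRIB1. Both PC3 TRIB1 libraries were above both controls, a change of 1.18 (SE 0.11, adjusted p = 0.00318), and far under the DU145 range of 112 to 143 TPM.

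CHD7, a chromatin remodeller that binds enhancers, closes the run and was 18.2 and 18.4 TPM in the DU145 controls, 19.2 and 16.3 in DU145 with TRIB1, 2.87 and 3.20 in the PC3 controls and 7.27 and 8.15 in PC3 with TRIB1. The change in PC3 was 1.11 (SE 0.12, adjusted p = 0.00426), with no overlap. RAB2A, a small GTPase of transport between endoplasmic reticulum and Golgi, went from 36.7 and 40.7 to 71.8 and 59.8 TPM in PC3, a change of 0.75 (SE 0.11, adjusted p = 0.00899). NSMAF, an adaptor of neutral sphingomyelinase, UBXN2B, a cofactor of the VCP unfoldase, and IMPAD1 (now BPNT2), a Golgi nucleotide phosphatase, rose by 0.85, 0.54 and 0.50 log2 units. They are named to complete the run.

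The 2 members of the run that did not pass the test are TGS1, which trimethylates the caps of small nuclear RNAs, and PLAG1, a zinc-finger transcription factor. TGS1 had overlapping PC3 groups, at 4.91 and 3.16 TPM in the controls and 6.19 and 4.89 with TRIB1, a change of 0.39 (SE 0.19, adjusted p = 0.24). PLAG1 was under 0.6 TPM in all PC3 libraries and between 6.93 and 9.08 TPM in DU145, and its PC3 change was 0.28 (SE 0.18, adjusted p = 0.361).

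Within the same span, 3 coding genes that are not members also rose in PC3. RPS20, a ribosomal protein of the small subunit that was left out by name, was 3165 and 3230.5 TPM in the DU145 controls, 3021 and 2915 in DU145 with TRIB1, 688 and 647 in the PC3 controls and 1365 and 1340.1 in PC3 with TRIB1, a PC3 change of 1.02 (SE 0.05, adjusted p = 0.000761). SDCBP (syntenin, a scaffold of membrane trafficking) went from 61.8 and 63.4 to 106 and 99.3 TPM in PC3 and TMEM68 from 4.30 and 5.27 to 8.28 and 8.08 TPM, changes of 0.70 (SE 0.06, adjusted p = 0.00204) and 0.67 (SE 0.15, adjusted p = 0.035). In DU145 0 of the 3 passed limma's test, and 1 was lower at an unadjusted p below 0.05. On the flanks, RB1CC1, an autophagy initiator just before the run, had a PC3 change of 0.50 (SE 0.15, adjusted p = 0.0742) that did not pass, and ASPH, an aspartyl hydroxylase just after it, fell by 0.41 (SE 0.05, adjusted p = 0.00508), from 558 and 528 to 406 and 409 TPM.

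**Figure D2:**
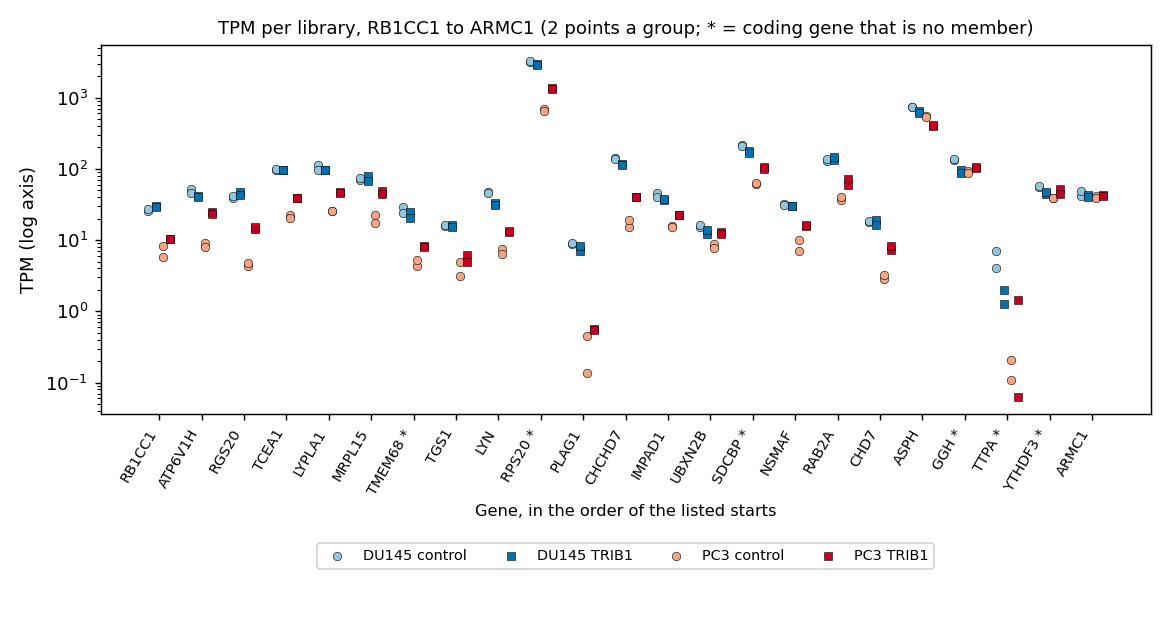
TPM on a log axis of each library, 2 points a group, for the coding genes from RB1CC1 to ARMC1 in the order of their listed starts; an asterisk marks genes that are not members. From ATP6V1H to CHD7 the PC3 controls are the lowest group and the PC3 TRIB1 libraries stand between them and DU145, except at TGS1, where the PC3 groups overlap, and at UBXN2B, where PC3 with TRIB1 reaches DU145 with TRIB1. ASPH goes the other way: ASPH was 558 and 528 TPM in the PC3 controls and 406 and 409 with TRIB1.

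In DU145 the median change of the run was -0.09. By limma 0 of its 14 members rose and 0 fell there, and at an unadjusted p below 0.05 there were 0 higher and 3 lower. Within the group of 15 members of the window from 50 Mb the summed level was 656 to 756 TPM in the 4 DU145 libraries, 161 and 155 TPM in the PC3 controls and 308 and 299 TPM in the PC3 TRIB1 libraries. The PC3 controls thus held the low end, and the TRIB1 libraries of PC3 remained under DU145. LY6K, a surface protein of the far arm that was 87.8 to 114 TPM in DU145, was at the same low level in both PC3 groups, 0.822 and 0.745 TPM in the controls and 0.732 and 0.834 with TRIB1. Without the run, 16.6% of the members rose in PC3 and 5.53% fell.

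Further along, the members that rose in PC3 were scattered among others that did not. In the window from 60 Mb RRS1, a factor of ribosome assembly, went from 42.5 and 45.3 to 64.5 and 67.3 TPM in PC3, a change of 0.58 (SE 0.09, adjusted p = 0.0111). In the window from 70 Mb the largest change was that of JPH1, a junctophilin that ties the endoplasmic reticulum to the plasma membrane. It was 3.45 and 3.76 TPM in the DU145 controls, 1.83 and 2.32 in DU145 with TRIB1, 4.66 and 5.59 in the PC3 controls and 16 and 16.1 in PC3 with TRIB1. In DU145 both TRIB1 libraries were below both controls and in PC3 both were above. The PC3 change was 1.48 (SE 0.14, adjusted p = 0.00323), the DU145 change -0.59 (SE 0.14, adjusted p = 0.106). LACTB2, a mitochondrial endoribonuclease, rose by 0.61 (SE 0.07, adjusted p = 0.00507), and TCEB1 (now ELOC, elongin C of ubiquitin ligases), a highly expressed member, went from 329 and 301 to 408 and 401 TPM, a change of 0.36 (SE 0.06, adjusted p = 0.0113).

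In the window from 80 Mb both SNX16, a sorting nexin of endosomes, and CHMP4C, a subunit of the membrane-cutting ESCRT machinery, rose in PC3. SNX16 was 17.9 and 21.3 TPM in the DU145 controls, 14 and 14.6 in DU145 with TRIB1, 7.58 and 5.83 in the PC3 controls and 16 and 15.9 in PC3 with TRIB1, which brought PC3 with TRIB1 to the level of DU145, a change of 1.15 (SE 0.14, adjusted p = 0.00588). CHMP4C was 13.6 and 13.3 TPM in the DU145 controls, 8.95 and 8.27 in DU145 with TRIB1, 19.5 and 17.1 in the PC3 controls and 34.1 and 31.7 in PC3 with TRIB1, rising by 0.81 (SE 0.10, adjusted p = 0.00558) in PC3. MRPS28, of the small mitochondrial ribosomal subunit, rose by 0.43 (SE 0.09, adjusted p = 0.0273).

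From 90 to 120 Mb the changes that passed were mostly smaller. NBN, which senses DNA double-strand breaks, rose in PC3 from 27.4 and 22.5 to 39.9 and 39.8 TPM, a change of 0.66 (SE 0.10, adjusted p = 0.0105). UQCRB, a subunit of respiratory complex III, rose by 0.37 (SE 0.08, adjusted p = 0.027), to 434 and 429 TPM. YWHAZ, an adaptor that binds phosphorylated proteins and is among the most abundant members, went from 777 and 702 to 948 and 927 TPM, a change of 0.34 (SE 0.07, adjusted p = 0.0233). ZNF706, a small zinc-finger protein, rose by 0.39 (SE 0.05, adjusted p = 0.0061), EIF3H, of the translation initiation factor that loads the ribosome, by 0.38 (SE 0.09, adjusted p = 0.0394), and NUDCD1 by 0.42 (SE 0.10, adjusted p = 0.0392). Well-known genes of this stretch had small PC3 changes that did not pass: 0.01 for MTDH, an oncogenic RNA-binding protein of the endoplasmic reticulum, 0.09 for the cohesin subunit RAD21 and 0.01 for PABPC1, the poly(A)-binding protein, with adjusted p from 0.575 to 1.00.

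To account for all 45, the members that rose in PC3 and are not described elsewhere were ARFGEF1, ZBTB10, OTUD6B, C8orf47, AZIN1, EBAG9, EXT1, ZHX2, TBC1D31, PTP4A3 and C8orf33. Their log2 changes lay between 0.33 (AZIN1, which stabilizes the polyamine enzyme ornithine decarboxylase) and 0.88 (ARFGEF1, an activator of Golgi ARF GTPases).

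Around TRIB1 itself, 7 of the 21 members of the window from 120 Mb rose in PC3 and 0 fell (limma, also 0 at an unadjusted p below 0.05). The 7 are 33.3%, beside 7.67% of all genes tested and 11.7% of those on other chromosomes at the same level. The share was not particular to this window, as 36.4% rose in the window from 60 Mb and 40% in that from 110 Mb. Of the 21 changes 18 were positive, beside 11718 of the 25982 genes tested. The nearest member, NSMCE2, a SUMO ligase of the DNA repair complex that starts 0.3 Mb before TRIB1, was 29.4 and 37.6 TPM in the DU145 controls, 35.4 and 38.5 in DU145 with TRIB1, 44.9 and 41.4 in the PC3 controls and 53.6 and 51.8 in PC3 with TRIB1. Its PC3 groups did not overlap but the change, 0.28 (SE 0.12, adjusted p = 0.19), did not pass. On the other side the next member is FAM84B (now LRATD2), 1.1 Mb after TRIB1, and it was 8.33 and 8.39 TPM in the DU145 controls, 6.79 and 5.22 in DU145 with TRIB1, 51.5 and 44.2 in the PC3 controls and 114 and 107 in PC3 with TRIB1. It rose in PC3 by 1.19 (SE 0.13, adjusted p = 0.00462), while in DU145 both TRIB1 libraries were below both controls without passing, a change of -0.43 (SE 0.13, adjusted p = 0.177).

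MYC, the growth-promoting transcription factor 2.3 Mb after TRIB1, was 34.6 and 34.8 TPM in the DU145 controls, 33.8 and 35.5 in DU145 with TRIB1, 138 and 178 in the PC3 controls and 193 and 189 in PC3 with TRIB1. In DU145 the groups overlapped. In PC3 both TRIB1 libraries were above both controls, but the controls were spread and the change was 0.28 (SE 0.12, adjusted p = 0.172).

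HAS2, the hyaluronan synthase 3.8 Mb before TRIB1, was 0.0684 and 0.0715 TPM in the DU145 controls, 0.0666 and 0.0147 in DU145 with TRIB1, 21 and 19.6 in the PC3 controls and 48.5 and 46.7 in PC3 with TRIB1. It was next to absent in DU145 and rose in PC3 by 1.19 (SE 0.11, adjusted p = 0.00318). NOV (now CCN3), a secreted matricellular protein 6.0 Mb before TRIB1, went from 35.5 and 32.7 to 56.9 and 56.8 TPM in PC3 and rose by 0.72 (SE 0.12, adjusted p = 0.0132). MTSS1, which shapes membranes and binds actin, rose by 0.86 (SE 0.18, adjusted p = 0.0264), and FAM91A1, which captures vesicles at the Golgi, by 0.48 (SE 0.07, adjusted p = 0.011). The 3 other members between FAM91A1 and NSMCE2 did not pass: RNF139, a ubiquitin ligase of the endoplasmic reticulum, at 0.35 (SE 0.10, adjusted p = 0.0628), TMEM65, a membrane protein, at 0.22 (SE 0.10, adjusted p = 0.211), and TRMT12, which modifies transfer RNA, at 0.08 (SE 0.11, adjusted p = 0.689).

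**Figure D3:**
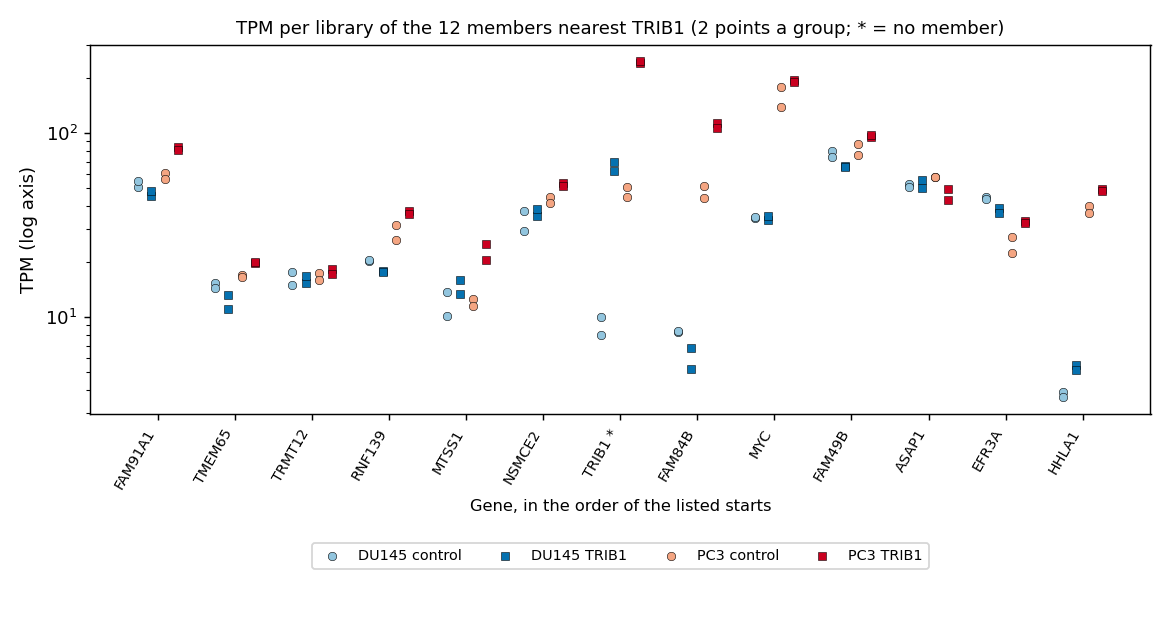
TPM on a log axis of each library, 2 points a group, for TRIB1 (asterisk, not a member) and the 6 members nearest to it on each side, in the order of the listed starts. FAM84B shows the widest gap between the PC3 groups among these members, from 51.5 and 44.2 TPM in the controls to 114 and 107 with TRIB1. The TRIB1 level may include transcripts of the viral copy, which TPM per gene does not tell from those of the native gene.

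Of the 12 members nearest TRIB1, 4 rose in PC3, where 21.1% of all members and 7.67% of all genes tested did. The 4 were FAM91A1, MTSS1, FAM84B and EFR3A. EFR3A, which anchors a lipid kinase at the plasma membrane, rose by 0.40 (SE 0.10, adjusted p = 0.0465). In DU145 0 of the 12 passed (limma), and 1 was higher and 3 lower at an unadjusted p below 0.05. FAM49B (now CYRIB), an inhibitor of RAC-driven actin branching, changed by 0.24 (SE 0.08, adjusted p = 0.109) in PC3, ASAP1, a GTPase-activating protein of focal adhesions, by -0.31 (SE 0.09, adjusted p = 0.0589), and HHLA1 by 0.35 (SE 0.09, adjusted p = 0.0508). FER1L6, a ferlin-like gene 1.6 Mb before TRIB1, is not a member because its control levels were under 5 TPM. It was 0.0186 and 0.0295 TPM in the DU145 controls, 0.0118 and 0.0198 in DU145 with TRIB1, 3.80 and 3.44 in the PC3 controls and 26.5 and 24.2 in PC3 with TRIB1, a PC3 change of 2.51 (SE 0.15, adjusted p = 0.000959).

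The last window, from 140 Mb, is the largest. Of its 56 members 4 rose and 6 fell in PC3, which is 7.14% and 10.7%. These shares are near the 7.67% and 9.33% of all genes tested. They are under the 11.7% and 16.7% of genes on other chromosomes at the same level. Only 14 of the 56 changes were positive, beside 11718 of 25982 for all genes tested and 4144 of 9293 on other chromosomes. The median was -0.17, beside -0.01 and -0.06. This window is the one in which the PC3 controls differed most, with a summed member level of 6151 TPM in replicate 1 and 7574 in replicate 2, beside 6274 and 6185 with TRIB1. Without PC3 control replicate 2 its median moved from -0.17 to -0.02, and without replicate 1 to -0.29. The number that fell was 11 without PC3 control replicate 1, 4 without replicate 2, 2 without either DU145 control library, and 0 and 1 without PC3 TRIB1 replicate 1 and 2. The number that rose was 2 without either PC3 control library and 1 without either PC3 TRIB1 library.

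EPPK1, epiplakin, a linker of keratin filaments, was the largest change of that window. It was 13.1 and 13.3 TPM in the DU145 controls, 6.71 and 6.63 in DU145 with TRIB1, 4.74 and 6.41 in the PC3 controls and 15.4 and 15.5 in PC3 with TRIB1. The lines moved in opposite directions with no overlap within either, by 1.33 (SE 0.14, adjusted p = 0.00384) in PC3 and -0.89 (SE 0.14, adjusted p = 0.0367) in DU145. PTK2, the focal adhesion kinase, fell in PC3 from 143 and 121 to 88.1 and 92.1 TPM, a change of -0.54 (SE 0.11, adjusted p = 0.0224). LRRC14, a leucine-rich repeat protein, fell by 0.55 (SE 0.08, adjusted p = 0.00988), TIGD5 by 0.88 (SE 0.17, adjusted p = 0.0213) and the zinc-finger gene ZFP41 by 0.64 (SE 0.12, adjusted p = 0.0193). EEF1D, of the elongation factor that recharges EEF1A, rose by 0.24 (SE 0.05, adjusted p = 0.0282), to 1097 and 1069 TPM. The drops of TIGD5, ZFP41, PTK2 and FAM92A1 were lost without either PC3 TRIB1 library, and that of LRRC14 without PC3 TRIB1 replicate 1, with log2 changes that stayed between -1.14 and -0.42 over all alternatives. Those of TIGD5, ZFP41 and FAM92A1 were lost also without either DU145 control library, that of TIGD5 without DU145 TRIB1 replicate 1, that of ZFP41 without PC3 control replicate 2 and that of PTK2 without PC3 control replicate 1.

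The strongest drop in PC3 was that of FABP4, a fatty acid carrier best known from fat cells, from 17.8 and 15.4 to 5.42 and 4.19 TPM, a change of -1.60 (SE 0.18, adjusted p = 0.00443). FABP4 was listed at 0 in all 4 DU145 libraries. Its paralog FABP5, 113 and 115 TPM in the DU145 controls and 384 and 349 in the PC3 controls, had a PC3 change of 0.24 (SE 0.07, adjusted p = 0.0774). FBXO43, an inhibitor of the anaphase-promoting complex, fell from 5.32 and 4.84 to 2.35 and 1.70 TPM, a change of -1.01 (SE 0.15, adjusted p = 0.00951). FAM92A1 (now CIBAR1), a protein of the ciliary base, fell by 0.74 (SE 0.14, adjusted p = 0.0209). GRINA, of the Golgi and endoplasmic reticulum membrane, completes the 11 that fell, from 197 and 205 to 168 and 163 TPM, a change of -0.28 (SE 0.07, adjusted p = 0.0433).

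In DU145, 4 members rose and 6 fell, which is 1.88% and 2.82% of the 213, beside 0.712% and 2.01% of all genes tested and 1.04% and 3.74% of the genes of other chromosomes under the same level rule. Of these 1 member was called upward and 2 downward, beside 0.312% and 0.804% of all genes. At an unadjusted p below 0.05 there were 47 of the 213. The share of all genes at that threshold was not counted, so nothing is drawn from the 47. The members' median change was -0.09, beside -0.04 for all genes tested, and no window median left the range from -0.22 to 0.03. Both TRIB1 libraries lay above both controls for 34 members and below them for 95, beside 17.6% and 29.7% of all genes and 19.8% and 40.2% of those on other chromosomes. The shares that rose and fell are near those of the other genes. The non-coding RNAs RN7SL1 and RN7SL2 took 1.27% and 1.56% of the TPM in the DU145 controls and 1.93% and 3.17% in the TRIB1 libraries, replicate 2 being the highest of all 8, and their part in these changes was not tested. When 1 library was left out, the counts that rose and fell were 1 and 1 without DU145 control replicate 1, 2 and 2 without DU145 control replicate 2 and without DU145 TRIB1 replicate 1, 0 and 4 without DU145 TRIB1 replicate 2, and 2 and 1 without either PC3 TRIB1 library.

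The changes past a doubling or halving in DU145 were those of MATN2, CPQ and SDC2, which lie 27.6, 28.8 and 28.9 Mb before TRIB1, with TSPYL5, MTDH and LAPTM4B between MATN2 and CPQ not passing. MATN2, a filament-forming protein of the extracellular matrix, was 36.5 and 40.4 TPM in the DU145 controls, 86.5 and 91.9 in DU145 with TRIB1, 31.7 and 26.5 in the PC3 controls and 32.3 and 28.2 in PC3 with TRIB1. It rose in DU145 by 1.19 (SE 0.12, adjusted p = 0.0109) and its PC3 groups overlapped. CPQ, a secreted carboxypeptidase, was 12.7 and 13.4 TPM in the DU145 controls, 5.63 and 5.21 in DU145 with TRIB1, 13.5 and 11.8 in the PC3 controls and 10.1 and 9.38 in PC3 with TRIB1. It fell in DU145 by 1.13 (SE 0.11, adjusted p = 0.0107), and no single library that was left out ended that call.

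Next to CPQ, SDC2, a heparan sulfate proteoglycan of the cell surface, was 15.2 and 17.3 TPM in the DU145 controls, 6.41 and 3.81 in DU145 with TRIB1, 22.9 and 20.7 in the PC3 controls and 39.9 and 38.6 in PC3 with TRIB1. It fell in DU145 by 1.53 (SE 0.21, adjusted p = 0.0264) and rose in PC3 by 0.82 (SE 0.21, adjusted p = 0.0455). CTHRC1, a secreted glycoprotein, and TPD52, a vesicle protein that is often overexpressed in prostate cancer, rose in DU145 by 0.63 (SE 0.10, adjusted p = 0.0373) and 0.34 (SE 0.05, adjusted p = 0.0315). TPD52 went from 178 and 178 to 223 and 226 TPM in DU145 and from 201 and 205 to 234 and 220.0 in PC3, a change of 0.16 (SE 0.05, adjusted p = 0.0816).

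GSDMD, the pore-forming protein of pyroptosis, was the member that fell in both lines. It was 115 and 112 TPM in the DU145 controls, 76.5 and 74.2 in DU145 with TRIB1, 110.1 and 123 in the PC3 controls and 88.5 and 93.3 in PC3 with TRIB1, with a change of -0.58 (SE 0.07, adjusted p = 0.0199) in DU145 and -0.35 (SE 0.07, adjusted p = 0.0233) in PC3. LRRC6 (now DNAAF11), an assembly factor of ciliary dynein, fell in DU145 from 8.44 and 8.61 to 4.28 and 4.77 TPM, a change of -0.79 (SE 0.10, adjusted p = 0.0256). Each DU145 change other than that of CPQ lost its call when some libraries were left out: RDH10 and LRRC6 without either DU145 control library, MATN2 without DU145 control replicate 1 or DU145 TRIB1 replicate 2, and SDC2 without either DU145 control or any PC3 library. TPD52, CHMP4C, EPPK1 and GSDMD lost it without any of the 4 DU145 libraries or either PC3 TRIB1 library. RDH10 lost it also without DU145 TRIB1 replicate 2, LRRC6 without DU145 TRIB1 replicate 1 and either PC3 TRIB1 library, and CTHRC1 without either DU145 TRIB1 library or any PC3 library. In PC3 the drop of GSDMD was lost without either library of the DU145 controls or of PC3 with TRIB1. Over all alternatives the log2 changes of these members in DU145 kept their sign, for example -1.84 to -1.08 for SDC2, 1.12 to 1.27 for MATN2 and -0.60 to -0.50 for GSDMD.

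The difference between the changes was tested directly, as the DU145 change minus the PC3 change. It was below 0 for 35 members and above 0 for 4 at an adjusted p below 0.05, which is 16.4% and 1.88% of them, beside 5.36% and 4.01% of all genes tested and 8.65% and 7.13% of those on other chromosomes. With a difference past 1 there were 14 below and 3 above, beside 3.01% and 2.11% of all genes and 3.92% and 3.17% of those on other chromosomes. The members' median difference was -0.23. Of the 35, 11 lay in the run from ATP6V1H to CHD7, and without the run 12.1% of the members were below 0. The count of 35 was 19 without either DU145 control library, 23 without DU145 TRIB1 replicate 1, and 16 and 18 without PC3 TRIB1 replicate 1 and 2. The 11 of the run were then 7, 7, 8, 7 and 7.

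The smallest p-value was that of RDH10, a retinol dehydrogenase that makes the precursor of retinoic acid. RDH10 was 25.3 and 24.8 TPM in the DU145 controls, 40.03 and 42.8 in DU145 with TRIB1, 80.3 and 78 in the PC3 controls and 41.2 and 47.2 in PC3 with TRIB1. It rose in DU145 by 0.70 (SE 0.08, adjusted p = 0.0189) and fell in PC3 by 0.83 (SE 0.08, adjusted p = 0.00349), so that the lines, far apart in the controls, met near the same level with TRIB1. The difference was 1.53 (SE 0.12, adjusted p = 0.00346). EPPK1 moved the opposite way, with a difference of -2.22 (SE 0.19, adjusted p = 0.00497), and JPH1 likewise, with -2.07 (SE 0.20, adjusted p = 0.00625). ATP6V1H, RGS20, LYN and TCEA1, all of the run, differed by -1.62, -1.35, -1.36 and -0.89, and CHMP4C by -1.40, with adjusted p between 0.00499 and 0.00706.

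The lines also differed in how much of the arm they transcribed. This difference was tested in the TRIB1 libraries, which the choice of members did not use, though it used the controls of the same lines, and there 99 members were higher in PC3 and 50 lower. Members that reached 5 TPM in the controls of 1 line alone had to differ, so the 176 that reached it in both are given too: 84 were higher and 35 lower, with a median of 0.31. Genes of other chromosomes were not counted under this stricter rule, so the 84 and 35 have no like share beside them. The 99 and 50 are 46.5% and 23.5% of all 213 members. Of all genes tested 20.8% and 29% were higher and lower, as were 30.1% and 39% of other chromosomes' genes under the same level rule. With a log2 difference past 1 there were 43 higher and 30 lower among the 213, beside 11.6% and 16.5% of all genes tested. The median difference of the 213 was 0.28, beside -0.16 for all genes. Scaling by the median of ratios moved the median of all genes to 0 and that of the members to 0.48, and the counts to 117 and 44. No single library that was left out took the counts out of 86 to 104 higher and 43 to 54 lower.

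**Figure D4:**
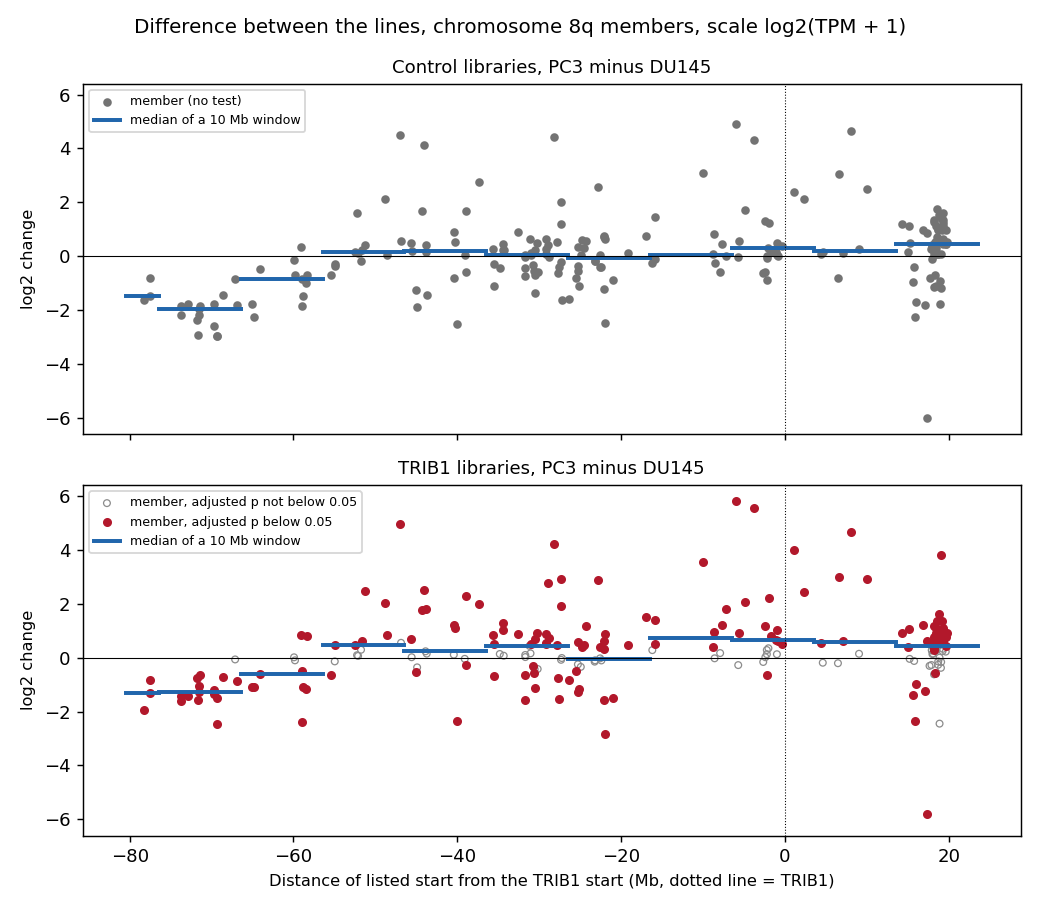
PC3 minus DU145 for each member (vertical axis, scale log2(TPM + 1)) against the distance of its listed start from the TRIB1 start in Mb, in the control libraries above, with no test, and in the TRIB1 libraries below, where filled points have an adjusted p below 0.05; bars are medians of 10 Mb windows. The first 3 windows lie below 0 in both panels, with medians of -1.46, -1.98 and -0.83 in the controls, and in the TRIB1 libraries the windows from 110 and 120 Mb reach 0.73 and 0.67.

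By window, the median of that difference in the TRIB1 libraries was -1.32, -1.28 and -0.63 in the windows from 40, 50 and 60 Mb. It was 0.47 in the window from 70 Mb and above 0 in the later ones, except that from 100 Mb. There it was -0.06, with 11 members higher in PC3 and 7 lower. The cut at 70 Mb used next was not planned and lies where these medians change sign, so its counts are a description. Of the 29 members that start before 70 Mb, 24 were lower in PC3 and 2 higher in the TRIB1 libraries, with a median of -1.10. Of the 184 members from 70 Mb on, 97 were higher and 26 lower, with a median of 0.46. Among those at 5 TPM in both control groups, for which no share of other genes was counted, 18 of 23 were lower before 70 Mb and 2 higher. From 70 Mb on 82 of 153 were higher and 17 lower. In the window from 50 Mb 14 of 15 were lower, and in the window from 110 Mb 7 of 10 were higher. These counts include members that reached 5 TPM in the controls of 1 line alone, whose direction the choice set. Among those at 5 TPM in both control groups they were 10 of 11 and 5 of 8. In each of the 2 windows limma found 0 the other way, also at an unadjusted p below 0.05. As a description of the controls, the median PC3 minus DU145 difference was -1.77 before 70 Mb and 0.22 from 70 Mb on, where that of all genes was -0.18. Over the whole arm 37 members exceeded 1 and 40 were under -1, and from 70 Mb on the counts were 37 and 19, beside 12.1% and 19.7% of all genes. The run had a control median of -2.07, between -2.95 and -0.86, and its window had the lowest control median of the 265 windows.

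At the near end of the arm, MCM4, a subunit of the replicative helicase, was 356 and 420.5 TPM in the DU145 controls, 355 and 383 in DU145 with TRIB1, 125 and 156 in the PC3 controls and 149 and 145 in PC3 with TRIB1. All PC3 libraries were lower, with a difference of -1.32 (SE 0.13, adjusted p = 0.000385) in the TRIB1 libraries. SPIDR, a scaffold of homologous recombination, differed by -1.93 (SE 0.15, adjusted p = 0.000199), and PCMTD1 by -1.60 (SE 0.16, adjusted p = 0.000495). MYBL1, a transcription factor, differed by -2.39 (SE 0.13, adjusted p = 4.41e-05).

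Near TRIB1, MYC differed between the lines by 2.43 (SE 0.12, adjusted p = 3.33e-05) in the TRIB1 libraries, all PC3 libraries being higher. FAM84B differed by 4.0 (SE 0.13, adjusted p = 1e-05). ST3GAL1, which adds sialic acid to O-glycans, was 8.18 and 4.60 TPM in the DU145 controls, 4.38 and 3.51 in DU145 with TRIB1, 181 and 177 in the PC3 controls and 132 and 119.5 in PC3 with TRIB1. The lines did not come near each other, and the difference was 4.68 (SE 0.23, adjusted p = 3.55e-05).

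Several members reached the level in the PC3 controls alone, so that their line difference is set by the choice and is described without a test. NOV was 0.0956 and 0.249 TPM in the DU145 controls and 0.0292 and 0.0256 with TRIB1, and 32.7 to 56.9 TPM in PC3. TRPS1, a GATA-type repressor, was 0.0251 and 0.0781 TPM in DU145 with TRIB1 and 12.1 and 10.5 in PC3 with TRIB1. In the same libraries PKIA, an inhibitor of protein kinase A, was 0.134 and 0.0440 against 30.2 and 35.3 TPM. TSPYL5, a nucleosome assembly protein, was 0 and 0.0545 against 18.5 and 17.6 TPM there, HHLA1 was 5.52 and 5.14 against 49.8 and 48.4, and KHDRBS3, a splicing regulator, was 3.58 and 2.63 against 29.7 and 29.7. HAS2 belongs here too. AGO2, the slicer of RNA interference, reached the level in both lines and was 36.8 and 39.4 TPM in the DU145 controls, 38.2 and 44.5 with TRIB1 and 80.3 to 87.1 TPM in PC3, a difference of 1.05 (SE 0.09, adjusted p = 0.000252). FAM203B is a near-identical copy of FAM203A, and SCXA of SCXB, so that reads may have been split between them: FAM203B, listed at 0 in both DU145 TRIB1 libraries and at 8.37 and 19.8 TPM in PC3 with TRIB1, is uncertain.

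Other members reached the level in the DU145 controls alone and are described without a test as well. LY6K, a lipid-anchored surface protein of the LY6 family, was 114 and 114 TPM in the DU145 controls, 108 and 87.8 in DU145 with TRIB1, 0.822 and 0.745 in the PC3 controls and 0.732 and 0.834 in PC3 with TRIB1. Its relative LY6E, by contrast, was present in both lines, at 208 to 402 TPM over the 8 libraries, with a difference of -0.31 (SE 0.11, adjusted p = 0.0656). RIMS2, a scaffold of vesicle release sites, was 13 and 10.6 TPM in DU145 with TRIB1 and 0.656 and 0.873 in PC3 with TRIB1, and GPR20, an orphan receptor, was 8.34 and 7.01 against 0.624 and 0.810. CA2, a carbonic anhydrase, was 0.0769 to 0.0899 TPM in the 4 PC3 libraries. PLAG1 and RGS20 of the run belong here too. FZD6, a WNT receptor that reached the level in both lines, was lower in PC3 by a log2 difference of -1.58 (SE 0.09, adjusted p = 5.37e-05).

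Some of the most abundant members passed in neither contrast. PABPC1 was 785 and 772 TPM in the DU145 controls, 953 and 857 in DU145 with TRIB1, 1149.5 and 1215 in the PC3 controls and 1207 and 1176 in PC3 with TRIB1. In DU145 its TRIB1 libraries were above the controls, a change of 0.22 (SE 0.06, adjusted p = 0.157), and its PC3 groups overlapped. CYC1, cytochrome c1 of respiratory complex III, was 279.9 and 280.4 TPM in the DU145 controls, 291 and 286 in DU145 with TRIB1, 515 and 629 in the PC3 controls and 578 and 569.9 in PC3 with TRIB1, with changes of 0.04 (SE 0.09, adjusted p = 0.887) and 0.01 (SE 0.09, adjusted p = 0.993). DERL1, of the exit channel of the endoplasmic reticulum, TRAM1, of its entry channel, and LAPTM4B, a lysosomal membrane protein, had PC3 changes of 0.05, 0.07 and -0.01, with overlapping groups. Their DU145 changes were 0.17, -0.15 and 0.12, without overlap and with adjusted p from 0.246 to 0.313.

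By textbook role, 172 of the 213 members fall into 10 groups, and rises in PC3 were spread over 9 of them. Beside these counts, 21.1% of all members rose in PC3 and 5.16% fell. Of all genes tested 7.67% rose and 9.33% fell, and of other chromosomes' genes at the same level 11.7% and 16.7%. The counts include members of the run, such as ATP6V1H, LYPLA1 and RAB2A in membrane traffic and MRPL15 in translation. Membrane traffic and lysosome had 8 of 25 members that rose and 1 that fell, with a median of 0.33. The 8 were ATP6V1H, LYPLA1, RAB2A, ARFGEF1, CHMP4C, SNX16, FAM91A1 and EFR3A. Of the 14 members for cytoskeleton, adhesion and matrix 5 rose and 0 fell (JPH1, SDC2, NOV, MTSS1 and EPPK1), with a median of 0.22, and 2 were lower at an unadjusted p below 0.05. Translation had 5 of 17 that rose and 0 that fell (MRPL15, RRS1, MRPS28, EIF3H and EEF1D), with a median of 0.21, and mitochondria 3 of 8 and 0, with 0 lower also at an unadjusted p below 0.05 in either list. Transcription and chromatin had 5 of 30 that rose and 1 that fell, with a median of 0.03, signalling 6 of 21 and 1, metabolism and transport 4 of 24 and 3, DNA replication and repair 2 of 16 and 0 (2 lower at an unadjusted p below 0.05), and ubiquitin and protein quality 3 of 15 and 2. Of the 2 LY6 family members 0 passed, also at an unadjusted p below 0.05.

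Other stretches of the genome under the same level rule differed in both directions. Chromosome 12 and chromosome 11 had PC3 shares like those of the long arm, as given above. Chromosome 8 before 46 Mb had 121 genes, a PC3 median of 0.09 with 16 that rose and 9 that fell, and a DU145 median of -0.09. Chromosome 20 from 28 Mb, with 197 genes, had a PC3 median of -0.24 with 7 that rose and 58 that fell and a DU145 median of -0.33. The short arm of chromosome 10 (before 39 Mb), with 79 genes, had medians of -0.24 in PC3 and 0.16 in DU145. These are descriptions, with no test of a difference between stretches.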

How the data were processed

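RNA sequencing of 8 libraries was used (DU145 and PC3, control and TRIB1, 2 libraries a group). The deposited values are TPM, in 1 table by the authors. Per the submitters' processing notes, hg38 was the build and edgeR, DESeq, HTSeq and TopHat2 2.0.14 were among the tools, without a stated role. The annotation and the TPM tool were not given in the sources used here. Depth is unknown, so no counting intervals are given. The test kept 25982 of 57905 genes, those whose mean reached 1 TPM in 1 or more groups. Values were analysed as log2(TPM + 1), on which scale every fold change stands and which understates the changes of low genes, with limma 3.58.1 (trend, R 4.3.3): 4 group means in 1 fit, 4 residual and 1.89 prior degrees of freedom, Benjamini-Hochberg adjustment over all genes. A call with a fold needed an absolute log2 change over 1, a cutoff set for this report. The difference between the lines was tested in the TRIB1 libraries. Members and lists were chosen with earlier results of these data known. Both TRIB1 contrasts enter their difference, so these are no independent tests.

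Members were named by rule: the 10 largest changes each way per contrast, the 8 smallest p for the difference, the 2 highest members per window, the 6 nearest TRIB1 on each side, 3 per role, and a list of known genes of the arm. The other members of the run, the remaining members that rose or fell in PC3, the markers and the non-members in the run were named after their values were seen. On simulated data with normal noise, 100 genes a line changed by 1 either way on the log2(TPM + 1) scale and 100 by 2. Of the first limma recovered 62% in DU145 and 70% in PC3, and of the second 89% and 95%. Of 25782 unchanged genes a line, 20 passed in DU145 and 11 in PC3. In the data themselves 707 and 4415 genes passed, so these rates may not carry over. Alternatives covered the pseudocount, filter, scaling, trend, replicate block, members' rule and leaving out each library. No sequence is reported, and a few items are not reported here.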

Additional observations from a re-analysis of the deposited data

Results flagged for a closer look

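The change with TRIB1 differed between the lines for 8 members with the smallest p for that difference, tested by limma as the DU145 change minus the PC3 change. RDH10 differed by 1.53 (adjusted p = 0.00346), rising in DU145 and falling in PC3. The other 7 were negative, the PC3 change being the higher: EPPK1 by -2.22, JPH1 by -2.07, ATP6V1H by -1.62, CHMP4C by -1.40, LYN by -1.36, RGS20 by -1.35 and TCEA1 by -0.89, with adjusted p between 0.00497 and 0.00706. Of these, ATP6V1H, RGS20, TCEA1 and LYN lie in the run from ATP6V1H to CHD7. All 8 lost the call with replicate numbers as a block, also with the PC3 numbers crossed, and kept it under the 16 other alternatives.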

How the results depend on the processing

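Over the named members no called change reversed. In DU145 the members that rose and fell (4 and 6) were 0 to 3 and 1 to 6 when each library was left out. They were 7 and 12 with protein-coding genes alone, 2 and 3 without the trend, 0 and 0 with the DU145 libraries fitted alone, and 3 fell with upper-quartile scaling. In PC3 (45 and 11) they were 18 to 49 and 4 to 16 when each library was left out, and 12 and 0 with the PC3 libraries alone, and 17 fell with protein-coding genes alone. For the difference of the changes (4 above and 35 below 0) they were 2 to 6 and 16 to 44, 8 and 54 with protein-coding genes alone, and 23 below without the trend. The line difference (99 and 50) kept within 1.5 times throughout.

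With the replicate number as a block the counts were 0 and 0 in DU145, 21 and 5 in PC3, and 0 and 0 for the difference. The labels do not say whether libraries of equal number were handled together. Deviations of equal numbers correlated with r = -0.04 in DU145 and -0.01 in PC3 over all genes (0.09 and -0.12 over members). With 2 libraries a group these values cannot decide it. With PC3 numbers crossed, an alternative chosen after seeing the data, 19 rose and 5 fell, and 0 members were called in DU145 and 0 for the difference. Of the named calls, over genes and alternatives, 79 of 180 were lost in DU145, 51 of 380 in PC3, 8 of 136 for the difference and 0 of 360 between the lines, where the differences of members near 0 TPM in 1 line moved most (NOV 3.62 to 8.81, CA2 -4.65 to -0.90). With members taken by GENCODE gene type (267, also added later), 60 rose and 14 fell in PC3.

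The limits are 2 libraries a group, values without read totals, and a listed gene type and interval whose source is not stated. What ended the lost calls was not tested.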
